A study of Arabidopsis thaliana with 34 samples.

Results

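The early and lasting fall set holds 117 of the 22746 probe sets tested on the Affymetrix ATH1 array, which measures Arabidopsis thaliana transcripts. Its members were chosen by their own values: the log2 change from cold acclimated leaves, as an equally weighted mean of 3 accessions, had to be -0.7 or lower after 8 h, after 1 d and after 3 d at -3 °C. A log2 change of -1 is a level 2 times lower. The thresholds were met by 120 probe sets, and 3 of them were left out by name (LHCB4.2, AT1G54050 and AT5G37670, the last taken as HSP15.7). Of the 117, 55 report 1 gene each, 4 report several genes and 58 are unnamed here. Only the 55 are named below, by symbol where the annotation gives one (IQD24, UGT88A1, RR16, UPB1 and SWEET13) and otherwise by locus number. Because the falls themselves selected the set, they are described with their errors and are not tested.

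The study followed leaf transcripts through sub-zero acclimation in natural accessions: Columbia-0, here Col, Rschew, here Rsch, and Tenela, here Te. Plants grew for 42 days in soil under a 16-h day and then spent 14 days at 4 °C. The reference group in each accession, called cold acclimated here, was leaves of these intact plants. The other groups were leaves cut from such plants and kept supercooled in tubes with water, in darkness at -3 °C, with 8 h as the shortest stay, then 1 d and 3 d. Cold, darkness and detachment therefore cannot be told apart in a change from the reference, and all groups, the reference included, had been cold acclimated. Each array measured an RNA pool from 3 leaves of 3 plants. There were 34 arrays in 12 groups, 10 groups with 3 arrays and 2 groups with 2, which were those of Col after 8 h and after 3 d. In whole leaves, fewer cells of a type and less RNA per cell cannot be told apart.

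Sub-zero acclimation is the further gain in freezing tolerance that plants show after a cold acclimated tissue is held slightly below freezing. Calcium is an early signal of cold in plant cells, read by EF-hand proteins such as calmodulin and by calmodulin-binding proteins such as the IQD family. Leaves moved to darkness lose the light and sugar signals that keep up many transcripts for chloroplast proteins, and darkened leaves can senesce.

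The members' mean level, taken over the 117 probe sets on each array, was 7.51 ± 0.28 (SD, n = 9 arrays) in cold acclimated leaves. It was 6.59 ± 0.22 (n = 8) after 8 h, 6.21 ± 0.23 (n = 9) after 1 d and 6.23 ± 0.30 (n = 8) after 3 d. The lowest cold acclimated array, at 7.22, lay above the highest array of every sub-zero time (7.04, 6.70 and 6.78). Arrays within a condition differed too, and the cold acclimated replicate 3 had the highest mean in each accession: 7.82 in Col, 7.97 in Rsch and 7.74 in Te.

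**Figure D1:**
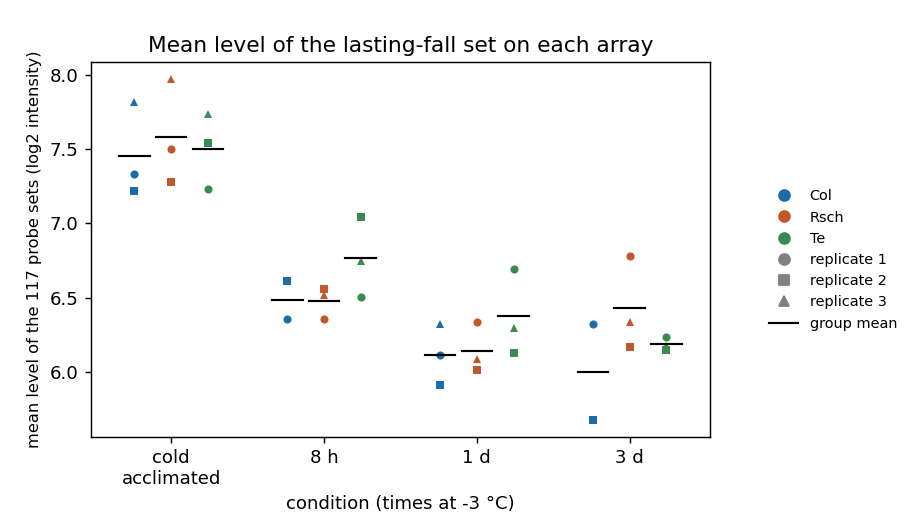
Mean log2 intensity of the 117 probe sets (y axis) on each of the 34 arrays, by condition (x axis), with colours for the accessions, symbols for the replicate numbers and bars for group means. All cold acclimated arrays lie at 7.22 or higher and all sub-zero arrays at 7.04 or lower.

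Most of the loss was present after 8 h and the set went lower by 1 d. The median change of the 117 was -0.88 (from -1.72 to -0.70) after 8 h, -1.27 (from -2.50 to -0.71) after 1 d and -1.24 (from -2.53 to -0.71) after 3 d. Over all 22746 probe sets the medians were -0.0007, -0.0014 and 0.0274. The number of members at -1 or lower was 35 after 8 h, 95 after 1 d and 78 after 3 d, and 25 were at -1 or lower each time. From 8 h to 1 d, 105 members moved lower. From 1 d to 3 d the set divided almost evenly: 56 moved lower, 11 of them by 0.5 or more, and 10 moved back up by 0.5 or more. The lowest value came after 8 h in 6 members, after 1 d in 56 and after 3 d in 55.

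The members' median fall had a different depth and course in each accession, and whether these medians differ was not tested. Col after 8 h and after 3 d had no replicate 3. The Col reference did, and its replicate 3 was the highest Col reference array, at a mean level of 7.82 against 7.33 and 7.22. How much of these Col medians comes from this mismatch was not tested. In Col the median change was -0.91 after 8 h, -1.33 after 1 d and -1.49 after 3 d. In Rsch it was -1.10, -1.34 and -1.10, so the value after 3 d equalled that after 8 h. Te had the smallest median fall after 8 h, at -0.67, followed by -1.09 after 1 d and -1.26 after 3 d. All 9 combinations of accession and time were below 0 in 113 members. The 4 exceptions are not among the named genes. The rule itself favours such a count, and the share of all probe sets is not given here.

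**Figure D2:**
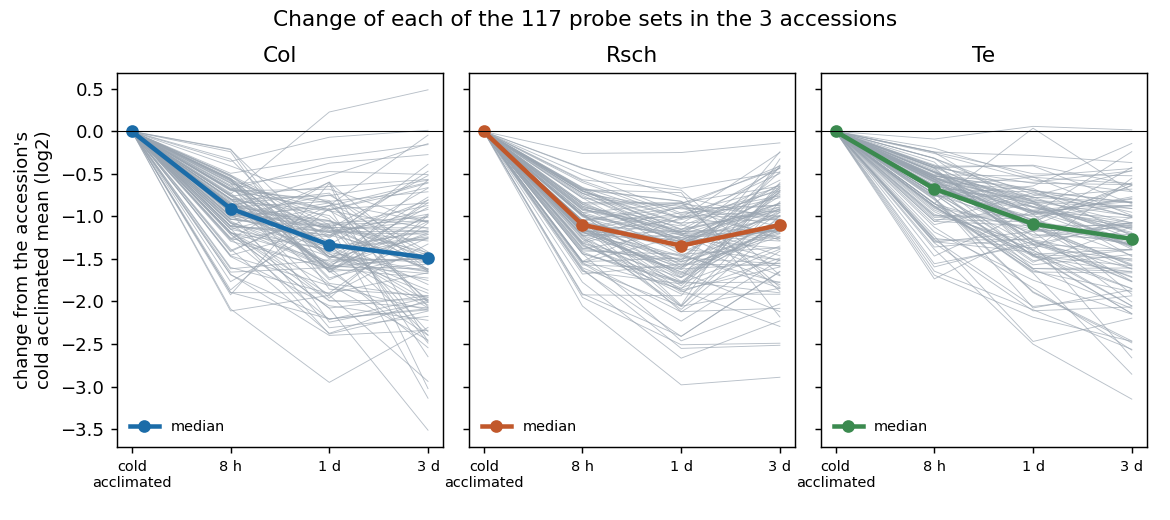
Log2 change (y axis) of each of the 117 probe sets from its accession's cold acclimated mean (grey lines) over time at -3 °C (x axis), with the median as a coloured line, for Col, Rsch and Te. The medians after 3 d are -1.49, -1.10 and -1.26.

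Unequal changes among accessions could be tested, since the rule used only their mean, and limma's moderated F test was run over all 22746 probe sets with Benjamini-Hochberg adjustment. No member was called at an adjusted p under 0.05 at any time. All probe sets gave 1 call (0.00440%) after 8 h, 6 calls (0.0264%) after 1 d and 7 calls (0.0308%) after 3 d. An unadjusted p under 0.05 was reached by 5 members after 8 h (4.27%, against 1.55% of all probe sets). After 1 d it was reached by 11 (9.4% against 2.3%) and after 3 d by 10 (8.55% against 3.75%). Members deviated together across arrays (mean correlation of pairs 0.20, against 0.008 for all probe sets), so these are not independent counts. They also had a higher median cold acclimated level, 7.54 against 6.19. These shares therefore do not show that unequal change is more common among members. Among named genes RR16 had the smallest unadjusted p after 1 d (0.0022, adjusted p = 0.87) and after 3 d (0.0034, adjusted p = 0.72). The smallest adjusted p of any member was 0.097, for the unnamed probe set 251665_at after 1 d. The fit behind these tests takes same-numbered arrays of an accession as independent, though they deviated together. With accession and replicate number as a random block, 3, 10 and 34 of all probe sets were called at the 3 times (0.0132%, 0.044% and 0.149%). Among members that fit called 0, 1 (0.855%) and 0. The 1 called after 1 d was 251665_at (adjusted p = 0.012). These tests do not show that the 3 accessions changed alike.

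Differences between arrays of 1 condition bear on these values. Replicate numbers marked shared deviations between cold acclimated and sub-zero arrays, and by number the median changes after 8 h, 1 d and 3 d were -0.95, -0.96 and -0.90 for replicate 1, -0.59, -1.27 and -1.26 for replicate 2, and -1.20, -1.56 and -1.43 for replicate 3. The replicate 3 values after 8 h and 3 d cover only 2 accessions, Rsch and Te, and so are not like for like with the others. Without replicate 3 of each cold acclimated group the members' medians were -0.75, -1.14 and -1.12, and 68 of the 117 (35 of the 55 named) still met the rule. The bioC hybridization control separated 9 arrays, replicate 1 of every cold acclimated, 1 d and 3 d group (mean bioC level 6.75), from the other 25 (8.05). These 9 also had a higher 3' minus 5' difference of the actin control, a measure of RNA integrity and labelling, at 2.21 against 1.48. Within the 9 arrays the members' medians were -0.96 after 1 d and -0.90 after 3 d, and within the 25 they were -0.92, -1.43 and -1.49 at the 3 times. By condition the actin difference was 1.74 ± 0.30 (n = 9) in cold acclimated leaves, 1.44 ± 0.18 (n = 8) after 8 h, 1.65 ± 0.40 (n = 9) after 1 d and 1.86 ± 0.49 (n = 8) after 3 d, and its part in the falls was not tested. Of the 34 arrays, 14 correlated best with an array of another condition. Among them Te at 1 d replicate 1 did so with a Te array of 3 d and Te at 3 d replicate 1 with one of 1 d, and whether their labels were exchanged was not tested. Without both, 115 probe sets met the rule, 112 of them members.

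The calcium group held the calmodulin-binding protein gene IQD24 and genes for the EF-hand proteins AT3G10190 and AT5G39670. Their changes lay between -1.56 and -0.90 after 8 h, between -1.90 and -1.30 after 1 d and between -1.49 and -0.95 after 3 d. IQD24 ranged from 6.64 to 7.55 (median 7.32) on the 9 cold acclimated arrays, from 5.26 to 7.11 (median 6.61) after 8 h, from 4.82 to 6.71 (median 5.08) after 1 d and from 4.16 to 7.45 (median 5.95) after 3 d. Its change was -0.90 ± 0.30 (SE) after 8 h, -1.90 ± 0.29 after 1 d and -1.44 ± 0.30 after 3 d. All 1 d arrays except Te replicate 1 lay below the cold acclimated range, while Rsch replicate 1 after 3 d lay inside it. AT3G10190 had the opposite course, with its lowest level early. It ranged from 5.83 to 7.67 (median 7.10) in cold acclimated leaves, from 5.14 to 5.92 (median 5.32) after 8 h, from 5.15 to 6.66 (median 5.52) after 1 d and from 5.77 to 6.42 (median 5.86) after 3 d. This made changes of -1.56 ± 0.17, -1.30 ± 0.16 and -0.95 ± 0.17. After 8 h the overlap with the cold acclimated range came from 1 low reference array, Rsch replicate 1. AT5G39670 spread widely in cold acclimated leaves, from 7.08 to 9.95 (median 8.75), and its medians were 7.98, 7.44 and 6.96 at the 3 times, with changes of -1.06 ± 0.25, -1.63 ± 0.24 and -1.49 ± 0.25.

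Other genes of calcium signalling were read from lists made for context, which, like the members, were chosen with earlier results of these data known. Counts are of genes with an adjusted p under 0.05 in limma's test of the mean change, beside the share of all probe sets called the same way. After 8 h the shares of all probe sets were 3.36% higher and 2.59% lower, after 1 d 9.73% and 15.5%, and after 3 d 15.9% and 21.0%. Of 14 IQD genes outside the set, 2 were higher after 8 h, 3 higher and 2 lower after 1 d, and 3 higher and 1 lower after 3 d. IQD22 rose by 1.31 ± 0.28 after 8 h (adjusted p = 0.0042), by 2.43 ± 0.27 after 1 d (3.2e-07) and by 2.48 ± 0.28 after 3 d (3.0e-07). The gene iqd32 had a change of -0.25 ± 0.11 after 8 h (adjusted p = 0.20) and fell to -0.65 ± 0.11 after 1 d (7.4e-05) and -0.71 ± 0.11 after 3 d (2.6e-05). The median change of these 14 genes was 0.014, 0.070 and 0.126. Their median cold acclimated level was 4.54, against 7.26 for IQD24, and genes at a low level have little room to fall. IQD28, with the highest level of the 14 (7.02), changed by -0.11 ± 0.22, -0.60 ± 0.21 and -0.50 ± 0.22. Of 61 entries on the list of calmodulins and calmodulin-like proteins, only 7 had a probe set named here. Of these 7 genes 1 was higher after 8 h, 2 higher and 1 lower after 1 d, and 2 higher after 3 d. CML38 rose by 1.96 ± 0.33 after 8 h (adjusted p = 4.2e-04) and by 1.04 ± 0.33 after 3 d (0.014), and CML42 rose by 0.83 ± 0.25 after 3 d (0.011).

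**Figure D3:**
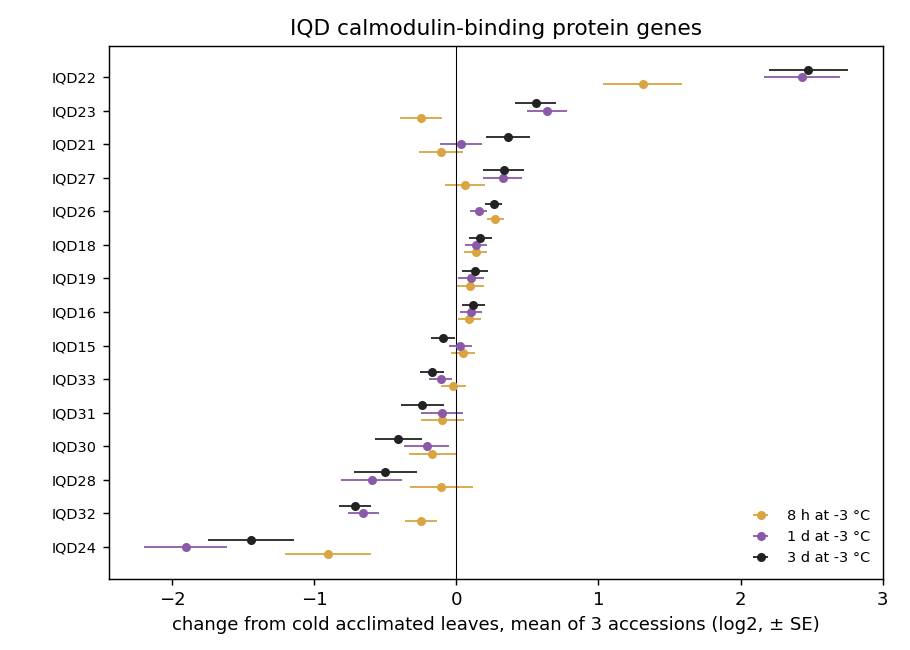
Log2 change from cold acclimated leaves, mean of the 3 accessions with its SE (x axis), for the 15 IQD genes measured (y axis, ordered by the change after 3 d), with a colour for each time. IQD24, chosen for its falls, lies at -1.44 after 3 d, and IQD22 lies at 2.48. The 14 genes other than IQD24 have a median cold acclimated level of 4.54, against 7.26 for IQD24.

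Genes with a chloroplast role followed different courses. AT1G51400 encodes a small subunit of photosystem II, AT5G52780 a PAM68-like protein and AT1G60000 a chloroplast RNA-binding protein. AT5G52780 ranged from 6.40 to 8.32 (median 7.22) in cold acclimated leaves, from 5.49 to 7.13 (median 6.05) after 8 h, from 4.52 to 6.27 (median 5.40) after 1 d and from 4.42 to 6.79 (median 5.52) after 3 d. Its changes were -1.08 ± 0.29, -1.73 ± 0.28 and -1.66 ± 0.29, and the 1 d arrays lay wholly below the reference range. AT1G51400 ranged from 6.56 to 11.39 (median 7.47) in cold acclimated leaves, from 6.10 to 8.21 (median 6.81) after 8 h, from 5.72 to 9.79 (median 6.60) after 1 d and from 5.01 to 6.20 (median 5.56) after 3 d. Only the 3 d arrays lay below every reference array. Its changes were -0.96 ± 0.57, -1.07 ± 0.55 and -2.46 ± 0.57. Without the Col cold acclimated replicate 3, which read 11.39, the changes after 8 h and 1 d were -0.45 and -0.55. Without replicate 3 of each cold acclimated group the changes at the 3 times were -0.22, -0.33 and -1.72. AT1G60000 stood near the threshold, with changes of -0.71 ± 0.20, -0.95 ± 0.19 and -0.98 ± 0.20.

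**Figure D4:**
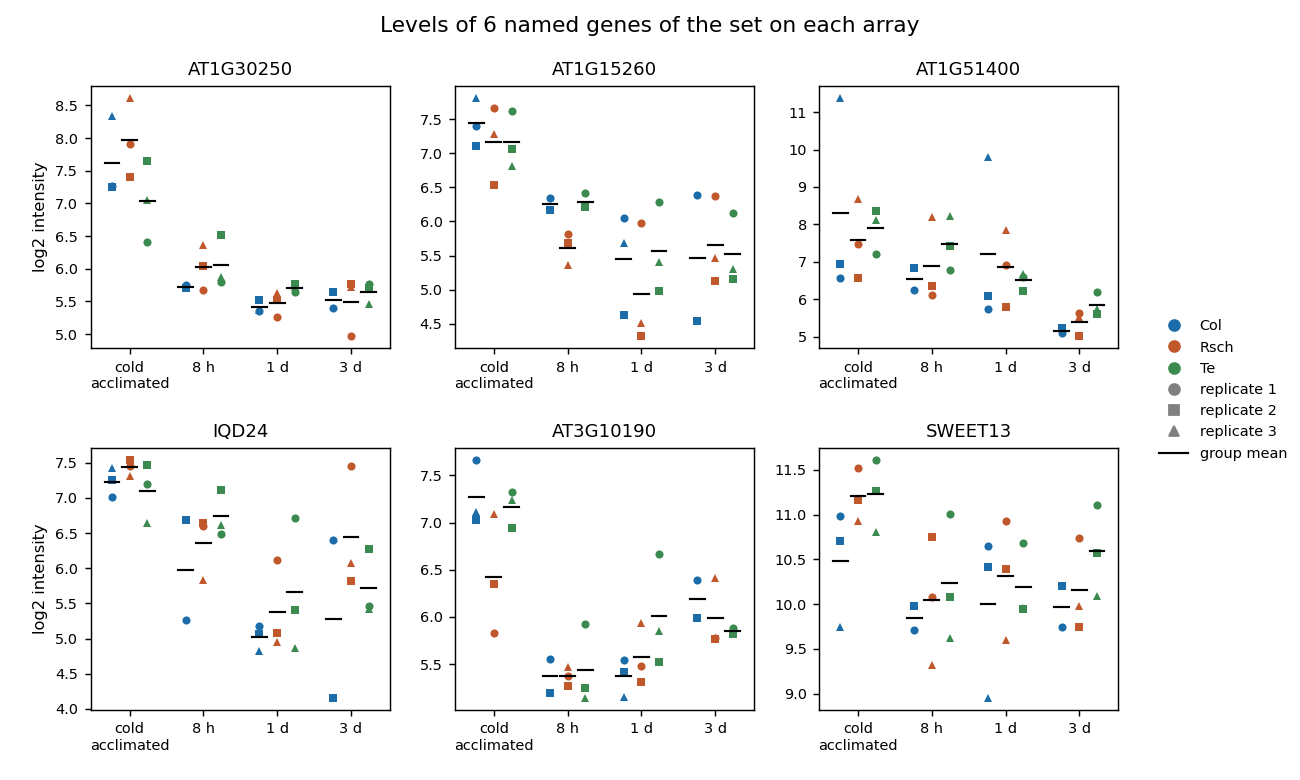
Log2 intensity (y axes) of 6 named genes on each of the 34 arrays by condition (x axes), with colours for accessions, symbols for replicate numbers and bars for group means. AT1G30250 and AT1G15260 lie lower from 8 h on, AT3G10190 is lowest after 8 h (median 5.32), and AT1G51400 has 1 reference array at 11.39.

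A pair of neighbouring genes was among the named members with the lowest values. AT1G30250 and AT1G30260 lie on chromosome 1 with 0 annotated genes between them. AT1G30250 had the lowest mean of the 3 changes among the named genes. It ranged from 6.41 to 8.62 (median 7.41) in cold acclimated leaves, from 5.67 to 6.52 (median 5.83) after 8 h, from 5.26 to 5.76 (median 5.52) after 1 d and from 4.97 to 5.77 (median 5.68) after 3 d. A single 8 h array, from Te, reached into the reference range, and none did after 1 d or 3 d. The changes were -1.61 ± 0.18, -2.01 ± 0.18 and -1.99 ± 0.18. Its neighbour AT1G30260 ranged from 7.50 to 8.68 (median 8.10) in cold acclimated leaves, and its medians were 7.28, 6.55 and 6.45, with changes of -1.01 ± 0.18, -1.50 ± 0.17 and -1.84 ± 0.18. Its 1 d and 3 d arrays lay wholly below the reference arrays. The next closest pair of named members, AT1G66080 and AT1G66130, has 5 genes between them. Chromosomes 1 to 5 carry 25, 6, 7, 5 and 12 of the 55 named genes. The shares of all probe sets with 1 gene are not given here, so these counts do not show a concentration on any chromosome.

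The remaining genes with the largest mean falls had no shared role that could be named here. AT1G15260 ranged from 6.54 to 7.82 (median 7.29) in cold acclimated leaves, and none of the arrays at the 3 times, with highest values of 6.43, 6.29 and 6.39, reached that range. Its changes were -1.21 ± 0.28, -1.95 ± 0.27 and -1.71 ± 0.28. AT1G35210 changed by -1.49 ± 0.34, -1.72 ± 0.33 and -1.76 ± 0.34, with overlapping arrays at each time, since its reference arrays ran from 5.23 to 8.59. AT3G09020, of a glycosyltransferase family, changed by -1.15 ± 0.27, -1.85 ± 0.26 and -1.57 ± 0.27, and its arrays at 1 d and 3 d lay below all reference arrays. AT1G21520 changed by -1.13 ± 0.23, -1.62 ± 0.22 and -1.32 ± 0.23. AT1G80180 changed by -1.08 ± 0.26, -1.55 ± 0.25 and -1.31 ± 0.26. Others had their lowest mean after 3 d. AT1G28400 changed by -0.81 ± 0.36, -1.05 ± 0.35 and -2.08 ± 0.36, and AT1G14345, of the NAD(P)-linked oxidoreductase type, by -0.85 ± 0.24, -1.55 ± 0.23 and -1.63 ± 0.24. AT2G03750, a sulfotransferase gene, turned back after 1 d, with changes of -1.16 ± 0.24, -1.69 ± 0.23 and -1.06 ± 0.24. Without replicate 3 of the cold acclimated groups they were -0.73, -1.27 and -0.64, the last short of the rule. The same omission gave changes after 8 h of -0.96 in AT1G35210 and -0.72 in AT3G09020.

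Genes of chaperone and protein turnover families made up a further group. AT2G19310 encodes a protein of the small heat shock (HSP20-like) type. It ranged from 6.38 to 10.20 (median 8.27) in cold acclimated leaves, and its medians were 7.19, 7.11 and 6.48, with changes of -1.05 ± 0.36, -1.64 ± 0.34 and -1.79 ± 0.36. The arrays overlapped at every time, and the change after 8 h was -0.51 without replicate 3 of the cold acclimated groups. AT1G66080 is a homologue of Hikeshi, which in human cells carries HSP70 into the nucleus. It changed by -0.92 ± 0.44, -1.23 ± 0.43 and -1.27 ± 0.44, but its reference median of 6.11 lay close to the later medians of 5.87, 5.84 and 5.84. High reference arrays were Te replicates 3 (9.79) and 2 (8.32), Rsch replicate 3 (8.80) and Col replicate 3 (7.64). The changes were -0.62, -0.93 and -0.97 without that Te replicate 3 alone, -0.61, -0.91 and -0.96 without that Rsch array alone, and -0.14, -0.44 and -0.49 without replicate 3 of all 3 cold acclimated groups. AT3G13672 encodes SINA2, of the SINA family that includes ubiquitin ligases, and whether it acts as a ligase itself was not tested. It ranged from 6.15 to 7.40 (median 6.88) in cold acclimated leaves, and its medians were 6.12, 5.46 and 5.20, with changes of -0.90 ± 0.18, -1.29 ± 0.17 and -1.62 ± 0.18. Its 3 d arrays lay below all reference arrays. The RING-type gene AT5G47610 and the LON-domain gene AT1G75460 had their lowest mean after 1 d, at -1.52 ± 0.29 and -1.16 ± 0.24, and stood at -0.92 ± 0.30 and -0.80 ± 0.25 after 3 d.

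Of 159 entries on the list of RING and U-box ubiquitin ligases, 14 had a probe set named here, all outside the set. Of these 14 genes, 4 were higher and 3 lower after 8 h, 4 higher and 3 lower after 1 d, and 3 higher and 1 lower after 3 d. PUB22, a U-box ligase gene of stress responses, rose by 2.35 ± 0.32 after 8 h (adjusted p = 3.3e-05) and by 2.21 ± 0.32 after 3 d (9.0e-06). ATL5 rose by 1.26 ± 0.24 after 8 h (0.0015) and by 0.89 ± 0.24 after 3 d (0.0046).

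The members AT1G11700, AT1G61930, AT5G03230 and AT4G26950 belong to the DUF584 family, also called the S40 or senescence regulator family after a barley gene expressed in senescing leaves. The 4 genes had changes between -1.15 and -0.85 after 8 h, between -1.64 and -0.92 after 1 d and between -0.997 and -0.83 after 3 d. AT5G03230 ranged from 6.34 to 8.53 (median 7.90) in cold acclimated leaves, and its medians were 6.96, 5.74 and 6.90, with changes of -1.15 ± 0.33, -1.64 ± 0.32 and -0.91 ± 0.33. The reference arrays of each of the 4 genes overlapped with the arrays of every time. AT1G61930 changed by -1.02 ± 0.30, -0.92 ± 0.29 and -0.87 ± 0.30, so its values at the 3 times differed by less than 1 SE, and without replicate 3 of the cold acclimated groups they were -1.51, -1.41 and -1.37. AT1G56220, of the dormancy and auxin associated family, changed by -0.77 ± 0.26, -1.34 ± 0.25 and -1.39 ± 0.26.

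SWEET13 encodes a sucrose transporter that releases sugar for loading into the phloem, the sugar-carrying tissue of the veins. It ranged from 9.75 to 11.61 (median 10.98) in cold acclimated leaves, from 9.32 to 11.00 (median 10.03) after 8 h, from 8.95 to 10.93 (median 10.39) after 1 d and from 9.74 to 11.10 (median 10.15) after 3 d. The arrays overlapped at each time, and the changes were -0.93 ± 0.27, -0.80 ± 0.26 and -0.73 ± 0.27. Replicate numbers ran together in this gene, and in all 25 pairs of arrays of the same accession and number the sub-zero array was lower, with differences from -1.61 to -0.30. These pairs are made of the arrays that chose the gene. It met the rule in 25 of 34 settings with a single array left out. Without Col cold acclimated replicate 1 its change after 3 d was -0.65. The other 13 SWEET genes measured, a family formed by symbol once the annotation had been seen, had a median change of 0.13, 0.13 and 0.18. Their median cold acclimated level was 4.99, against 10.97 for SWEET13, and genes at a low level have little room to fall. This median therefore does not set SWEET13 apart from its family. SWEET11, a close relative of SWEET13 in phloem loading with a cold acclimated level of 10.64, changed by -0.19, 0.04 and 0.13 at the 3 times. SWEET2 changed by 0.91, 2.04 and 1.88.

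UGT88A1 encodes a UDP-dependent glycosyltransferase, an enzyme that attaches sugar to small molecules. It ranged from 8.48 to 10.50 (median 9.18) in cold acclimated leaves, and its medians were 8.32, 8.02 and 8.21, with changes of -0.82 ± 0.26, -1.32 ± 0.25 and -1.10 ± 0.26. The arrays overlapped at each time, and the change after 8 h was -0.49 without replicate 3 of the cold acclimated groups. The 46 other UGT genes measured had medians of -0.04, 0.04 and 0.15 and ran from -2.07 to 1.46 after 3 d. Their median cold acclimated level was 6.05, against 9.27 for UGT88A1.

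UPB1 encodes a basic helix-loop-helix factor that represses peroxidase genes in the root. It ranged from 4.02 to 6.28 (median 4.87) in cold acclimated leaves, from 3.21 to 4.2 (median 3.76) after 8 h, from 3.21 to 4.23 (median 3.55) after 1 d and from 3.32 to 5.25 (median 3.95) after 3 d. Its changes were -1.07 ± 0.24, -1.28 ± 0.23 and -0.77 ± 0.24, with overlap at each time. All sub-zero arrays of UPB1, and its cold acclimated median, were under 5.32, a level that 40% of all array values do not exceed. Without replicate 3 of the cold acclimated groups the change after 3 d was -0.48.

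Differences between accessions in the starting level were tested, since the rule used each accession's own cold acclimated mean as a reference but not these differences. The F test called the cold acclimated level unequal in 12 of 117 members (10.3%), against 8.36% of all probe sets. Without the Te cold acclimated replicate 3 the count was 7 (5.98%), against 6.13% of all probe sets. Of the 12, 4 are named: RR16, AT1G34640, AT4G30993 and AT1G77660. RR16 encodes a type-A response regulator, a class of cytokinin-induced proteins that dampen cytokinin signalling. Its cold acclimated arrays read 5.25, 5.48 and 4.93 in Col, 5.90, 5.23 and 5.40 in Rsch, and 4.40, 4.11 and 4.57 in Te. All 3 Te arrays were below all arrays of the other accessions. Te was lower than Rsch by a log2 difference of -1.16 ± 0.19 and than Col by -0.86 ± 0.19 (F test, adjusted p = 4.7e-04). After 1 d all 9 arrays lay between 3.67 and 3.96, and the accessions overlapped. The mean changes were -0.71 ± 0.12, -1.23 ± 0.11 and -1.24 ± 0.12. All sub-zero arrays and all Te arrays of RR16 were under 5.32, a level that 40% of all array values do not exceed.

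AT1G34640 had the same order of accessions. Its cold acclimated arrays read 6.03, 6.19 and 7.23 in Col, 6.66, 6.47 and 7.13 in Rsch, and 5.14, 5.47 and 5.46 in Te, and the Te arrays again lay below the rest. The difference of Te from Rsch was -1.40 ± 0.27 (adjusted p = 0.0019). AT4G30993 was lowest in Rsch, where the cold acclimated arrays read 5.77, 5.35 and 6.18, against 6.63, 6.76 and 7.81 in Col and 6.55, 6.64 and 6.65 in Te. Rsch differed from Col by -1.30 ± 0.30 (adjusted p = 0.015), and its 3 arrays lay below the arrays of both other accessions. AT1G77660 read 4.69, 5.89 and 5.96 in Rsch, 6.75, 6.29 and 6.61 in Col, and 5.90, 5.64 and 6.55 in Te, so that Rsch lay below Col and overlapped with Te. The difference of Rsch from Col was -1.04 ± 0.24 (adjusted p = 0.015). The calls of RR16 and AT1G34640 held in all 45 alternative fits. The call of AT1G77660 was lost without cold acclimated replicate 1 of Col (adjusted p = 0.071) or of Rsch (0.066), and within the 25 arrays of the higher bioC level (0.34). That of AT4G30993 was lost without cold acclimated replicate 3 of Col (0.054) or replicate 1 (0.053) or 2 (0.098) of Rsch, and within the same 25 arrays (0.066). ATH1 probes follow the Col sequence, so a sequence difference under a probe and a difference in transcript level cannot be told apart.

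**Figure D5:**
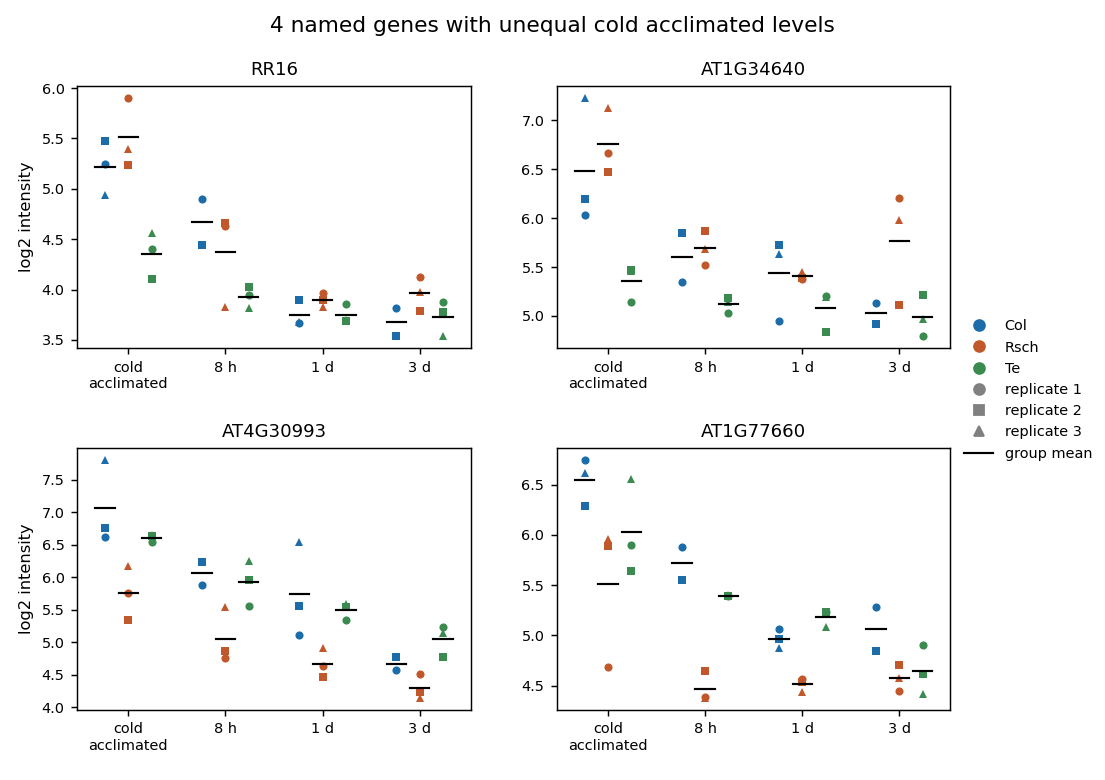
Log2 intensity (y axes) on each of the 34 arrays by condition (x axes) of the 4 named genes whose cold acclimated level was called unequal among accessions, with colours for accessions, symbols for replicate numbers and bars for group means. RR16 starts lower in Te and lies between 3.67 and 3.96 on all 1 d arrays.

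When the level was averaged over the 4 conditions, a comparison chosen after seeing the data, 55 of 117 members (47%) were called unequal among accessions, against 37.1% of all probe sets. Same-numbered arrays of an accession deviate together, and this fit takes them as independent. With accession and number as a random block 29 members (24.8%) were called, against 22.3% of all probe sets. Of the 55, 24 are named, and 10 of the 12 members called in cold acclimated leaves were among the 55. AT2G19310, the small heat shock type gene, was higher in Te than in Rsch by 2.06 ± 0.37 with the random block (adjusted p = 3.5e-04). AT5G39670, the EF-hand gene, was lower in Rsch than in Col by a log2 difference of -1.62 ± 0.29 (6.2e-04), and AT1G75460, the LON-domain gene, was higher in Rsch than in Col by 1.26 ± 0.28 (0.0023). AT1G66130, of the NAD(P)-binding fold, was higher in Te than in Col by 0.96 ± 0.19 (7.7e-04), all in the same blocked fit. These 4 were named after their values were seen.

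Only a small part of the hormone, clock and light lists had a probe set named here. Measured were 6 of 41 jasmonate, 12 of 136 auxin, 5 of 175 AP2/ERF and 2 of 38 brassinosteroid entries. Of the other lists, 2 of 30 salicylic acid, 1 of 27 ethylene, 1 of 28 clock and 2 of 38 light entries were measured. The counts below therefore do not describe these pathways as a whole. Of 6 jasmonate genes, 1 was higher after 8 h, 1 higher and 2 lower after 1 d, and 3 lower after 3 d. ORA47, an AP2/ERF factor gene of jasmonate synthesis, changed by 0.17 ± 0.56 after 8 h (adjusted p = 0.88) and fell to -1.82 ± 0.54 after 1 d (0.014) and -1.88 ± 0.56 after 3 d (0.010). MYC4, a factor of jasmonate signalling, fell to -0.90 ± 0.21 after 3 d (0.0015). ORA47 was also the 1 called gene of 5 on the AP2/ERF list after 1 d and after 3 d. Of 12 auxin response genes, 1 was lower after 1 d. GI, the 1 clock gene measured, rose by 1.29 ± 0.33 after 3 d (0.0031), and of 2 light signalling genes HYH rose by 1.02 ± 0.33 after 3 d (0.018). Of 2 brassinosteroid genes 1 was lower after 8 h, of 2 salicylic acid genes 1 was higher after 8 h, and EIN3, the 1 ethylene gene measured, changed by 0.12 ± 0.08 after 3 d (0.23). No listed abscisic acid gene had a probe set named here.

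Few markers of leaf cell types could be read. The mesophyll marker RCA, 1 of 19 listed, had a cold acclimated level of 12.58 and fell to -0.42 ± 0.11 after 1 d (adjusted p = 0.0053) and to -0.93 ± 0.11 after 3 d (8.9e-07). The trichome marker TRY, 1 of 8 listed, fell to -0.39 ± 0.09 after 1 d (0.0023) and -0.46 ± 0.09 after 3 d (4.6e-04). The guard cell marker FMA, 1 of 12, changed by -0.11 ± 0.10 after 3 d (0.40), and the phloem marker SWEET11, 1 of 12, by 0.13 ± 0.15 (0.51). Of 14 epidermis and 14 vascular markers 0 were measured under a name. The part of cell composition in the falls was not tested.

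Across arrays the members tended to deviate together from their group means. The mean correlation between pairs of members was 0.20 over the 34 arrays, against 0.008 between pairs of all probe sets, and 73.7% of member pairs were above 0. This is a description, since the members share arrays and were selected by means of the same arrays. In pairs of a cold acclimated and a sub-zero array of the same accession and number, 56 members were lower in all 25 pairs, 30 of them named, and the median member was lower in 24. These counts use the values that chose the set, and the share of all probe sets is not given here.

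The set has no natural edge at its threshold. AT1G48430, a dihydroxyacetone kinase gene, was just inside with -0.70 after 8 h, -1.06 after 1 d and -1.07 after 3 d, as were the unnamed 251282_at (-0.70, -1.03 and -1.58) and 263318_at (-0.70, -0.86 and -0.80). Just outside were AT5G42440, with -0.78, -0.93 and -0.6958, and the unnamed 250424_at, with -0.6997, -0.81 and -0.6999, and 252092_at, with -0.6986, -1.13 and -1.94. Of the 117 members 50 met the rule whichever single array was left out, and 23 of these are named. The 58 unnamed members had medians of -0.89, -1.16 and -1.27 at the 3 times, against -0.85, -1.28 and -1.24 for the 55 named ones.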

How the data were processed

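Leaf RNA of 34 samples was biotin-labelled and hybridized to 1 ATH1 array each. The authors deposited log2 intensities computed by RMA, as the submitters' processing notes state; its version is not given in the sources used here. RMA corrects background, normalizes quantiles and summarizes probes. That the scale is log2 follows from the values' range. Groups came from titles, and where another label gives the third cold acclimated replicates the number 2, the number of the title was kept. Replicates are biological and independent, per the labels.

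The 64 control probe sets were left out. Probe sets were named from the platform's annotation, which can be outdated, with symbols brought up to date from RefSeq (TAIR10.1). Of 22746 probe sets, 13513 had 1 gene (13436 matched to RefSeq), 503 had several and 8730 are unnamed here. HSP15.7 is in neither table and was taken as AT5G37670. No sequences were used, so promoter motifs were not searched.

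The members and gene lists were chosen with earlier results of these data known. One limma 3.58.1 fit (R 4.3.3) gave 12 group means over 34 arrays, with 22 residual degrees of freedom, default eBayes and two-sided tests. A call is a Benjamini-Hochberg adjusted p under 0.05 over all probe sets within a contrast. SE are from this fit, and SD are over arrays. Precision is limited by the number of arrays. The fit was tested on simulated data. The rest was done in Python 3.11.15 with pandas 2.3.3 and, for plots, matplotlib 3.10.9.

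Members named are those with a symbol, the 15 of 1 gene with the lowest mean change, up to 4 with the smallest p for each F test, those at the threshold, and neighbours or shared families. From each list, up to 2 called genes with the largest change after 3 d are named. Of 64 listed genes measured outside the set, some stand on several lists. Measured genes are those with a named probe set.

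Same-numbered arrays of an accession deviated together from their group means. The correlation was 0.16 to 0.60 in all 25 pairs of a cold acclimated and a sub-zero array. Numbers were taken as pairs only where changes within pairs are described. The main fit has no block, so its SE and p-values do not use the pairs. Alternatives were other normalizations, filters, thresholds, replicate blocks, array weights, array sets by bioC level and leaving out each array. Added after seeing the data were the level averaged over conditions, the random block, and leaving out 1 replicate number from all cold acclimated groups.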

Additional observations from a re-analysis of the deposited data

How the results depend on the processing

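The rule's count moved with its threshold, from 117 probe sets to 200 at -0.6 and 65 at -0.8, and to 196 without cold acclimated replicate 2 of each accession, 109 of them members. It was 103 to 146 with single arrays left out, 102 under quantile normalization and 79 under median centring, which shifted the median change of all probe sets by 0.10 after 3 d, to 0.13. With the replicate number alone as a block, shared by all accessions, 114 probe sets met the rule (107 members). In that fit 0 members were called unequal in change at any time. It called 18 (15.4%, against 13% of all probe sets) unequal in cold acclimated level. This block does not model the pairs of the same accession and number. The cold acclimated count was 12, 7 to 17 with single arrays left out, 55 for the level averaged over conditions, and 29 for that level with accession and number as a random replicate block.

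Unequal change was called in 0 members after 8 h under every alternative. After 1 d the count was 1 with array weights (251665_at, adjusted p = 0.035) and with accession and number as a random replicate block (0.012), and 0 to 1 with single arrays left out (251665_at at 0.0498 without Te 8 h replicate 1, 265894_at at 0.045 without Col cold acclimated replicate 1). After 3 d it was 0 to 1, with 265894_at at 0.0051 without the same Col array. The cause was not tested.

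Of 64 listed genes outside the set, 9 were higher and 3 lower after 8 h (8 to 11 and 2 to 3 with single arrays left out). After 1 d 10 were higher and 9 lower (6 to 12 and 6 to 10), with 6 higher without Rsch cold acclimated replicate 1 or Te 1 d replicate 2. After 3 d 10 were higher and 5 lower (9 to 12 and 5 to 7). The higher count was 16 with median centring, and the lower count was 8 with the bioC set as a block, in the larger bioC set, with array weights and with the random replicate block.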
